A study of Homo sapiens with 6 samples.

Results

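Death receptors are cell-surface proteins that can start programmed cell death, and the 8 genes described here encode 4 of these receptors and the first proteins that act on their inner side. The 8 were taken by name from the 50229 gene symbols of the deposited table: the receptors TNFRSF10A, TNFRSF10B, FAS and TNFRSF1A, the adaptor FADD, the kinase RIPK1, the inhibitor CFLAR and the protease CASP8. Each symbol had 1 row in the table. Messenger RNA was measured by sequencing poly(A)-selected RNA from 6 libraries. The labels call the cells Hep3B, which is an established human liver cancer line. In 3 libraries (siEIF4G2) a small interfering RNA, given at 50 nM, targeted EIF4G2, a translation initiation factor related to EIF4G1, and in the other 3 (siNC) a control RNA was given at 50 nM. All 6 libraries share the line and the dose. The labels give neither the time after transfection nor the origin of the replicates. P-values therefore reflect library-to-library spread, which may be only technical.

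TRAIL, the ligand encoded by TNFSF10, binds the receptors encoded by TNFRSF10A (DR4) and TNFRSF10B (DR5), Fas ligand binds FAS, and tumour necrosis factor binds TNFRSF1A. The TRAIL receptors and FAS recruit FADD through death domains, FADD recruits the protease caspase-8, and CFLAR (c-FLIP), a relative of caspase-8 without protease activity, competes for that place. TNFRSF1A first recruits TRADD, RIPK1 and ubiquitin ligases, a complex that signals to NF-kB, and RIPK1 can also take part in caspase-8-dependent death or in necroptosis. In liver, FAS and the TRAIL receptors are well known as routes by which immune cells kill hepatocytes.

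The libraries held between 63351653 and 72863628 estimated counts each. EIF4G2 itself lay between 179 and 201 CPM in siEIF4G2 and between 919 and 1110 CPM in siNC. Its log2 fold change was -2.43, with an SE of 0.09 (edgeR adjusted p = 0.000207). CPM is a gene's count relative to the library's total over the tested genes, scaled with edgeR's TMM factors. Of 10 hepatocyte and hepatoma markers, 8 (ALB, AFP, APOA1, APOB, TTR, FGB, GPC3 and FOXA2) were listed at 0 in every library, and the other 2, HNF4A and SERPINA1, reached at most 0.261 and 0.110 CPM. For counting error alone, a gene at 0 could still have had 3 counts (0.0412 to 0.0474 CPM). These 10 markers do not bear out the liver label of the cells, and the identity of the line was not tested. Of 5 epithelial markers, KRT8 and KRT18 made up nearly all of a summed 2007 to 2199 CPM in siEIF4G2 and 2256 to 2298 CPM in siNC, and EPCAM was at or near 0. The 8 fibroblast and smooth muscle markers, led by COL3A1, summed to 631 to 653 CPM in siEIF4G2 and 530 to 552 CPM in siNC. Of these 8, 3 were under 1 CPM on average, and the members did not move together. COL3A1, DCN and LUM were higher in siEIF4G2. COL1A1 was lower, at 69.4 to 76.9 CPM in siEIF4G2 against 90.2 to 105 CPM in siNC. PDGFRB was also lower, at 8.81 to 12.6 CPM against 22.7 to 26.9 CPM. The 5 endothelial markers summed to 3.40 to 4.18 CPM in siEIF4G2 and 10.1 to 10.7 CPM in siNC, with KDR and TEK at or near 0. CDH5 made up most of both sums, at 2.83 to 3.69 and 8.97 to 9.73 CPM, and 4 of the 5 were under 1 CPM on average. The 5 blood and immune markers summed to 0.211 to 0.505 CPM, with PTPRC and CD3E at 0, and the 4 adipose markers to 0 CPM in siEIF4G2 and 0.183 to 0.208 CPM in siNC, with ADIPOQ and LEP at 0. These sums are relative to all counts of a library, and the part that such differences between the groups have in the results below was not tested.

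Both TRAIL receptors and RIPK1 fell after EIF4G2 silencing, by between 1.40-fold and 1.54-fold, while FADD, CFLAR, CASP8, TNFRSF1A and FAS did not pass the test. All 8 genes passed the filter on low values and were tested with edgeR among 13748 genes. With adjusted p under 0.05 as the threshold, 3 of 8 were lower and 0 of 8 were higher, and the count higher was also 0 at an unadjusted p under 0.05 and with DESeq2. Over all tested genes 33.4% were called, 17.6% lower and 15.9% higher. The median log2 fold change of the 8 was -0.35, against 0.01 over all tested genes. In 4 of the 8 (TNFRSF10A, TNFRSF10B, RIPK1 and FAS), every siEIF4G2 library lay below every siNC library in CPM, which was so for 25.6% of tested genes. In bulk RNA, fewer cells that carry a transcript and less of it per cell cannot be told apart.

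**Figure D1:**
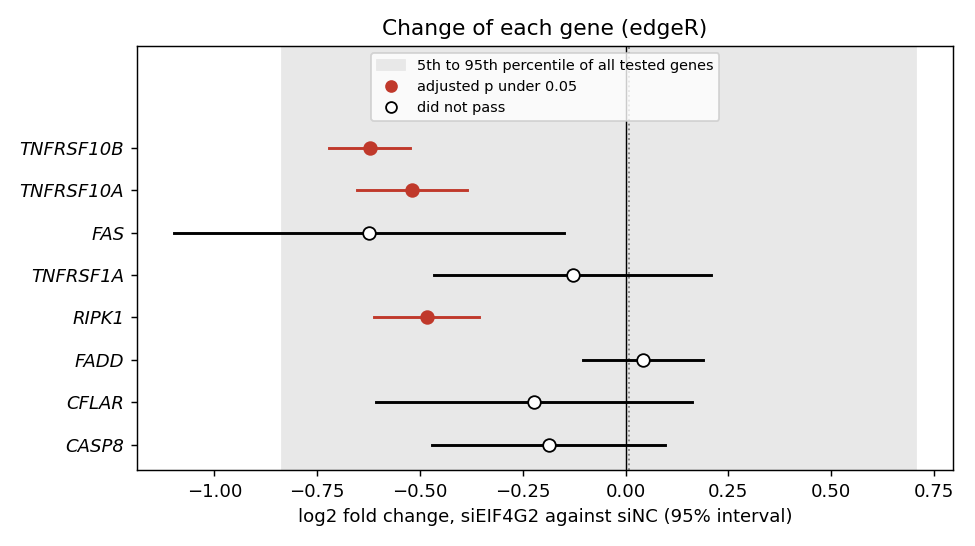
log2 fold change of each of the 8 genes between siEIF4G2 and siNC from edgeR (x axis), with its 95% interval as a line; filled red points have an adjusted p under 0.05, and the grey band holds the middle 90% of all tested genes. The 3 filled points are TNFRSF10B at -0.62, TNFRSF10A at -0.52 and RIPK1 at -0.48, all inside the grey band.

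Among the receptors, TNFRSF10B (ENSG00000120889) spans chromosome 8 from 23020133 to 23069031 on the minus strand (GRCh38). It read 128, 132 and 135 CPM in siEIF4G2 replicates 1, 2 and 3, and 197, 206 and 205 CPM in siNC replicates 1, 2 and 3. The groups lay far apart relative to the spread within them. The log2 fold change was -0.62 (SE 0.04; edgeR adjusted p = 0.000407), or 1.54-fold lower, and 9.05% of tested genes had a change at or below it. An exact two-sided permutation test of the gene alone gave p = 0.1, the smallest that 3 libraries against 3 allow. Its interval touches that of RHOBTB2 over 60 bases, and RHOBTB2 did not pass (log2 fold change -0.09; edgeR adjusted p = 0.498).

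TNFRSF10A (ENSG00000104689), the other TRAIL receptor with a death domain, lies on the same chromosome from 23190452 to 23225102, minus strand. It read 24.4, 25.3 and 25.7 CPM in the 3 siEIF4G2 libraries, against 35.9, 37.0 and 35.1 CPM in the 3 siNC libraries. Again no siEIF4G2 library reached the lowest siNC library. The log2 fold change was -0.52 (SE 0.06; edgeR adjusted p = 0.00149), or 1.43-fold lower. The 2 tested genes that overlap it, TNFRSF10A-AS1 and a noncoding transcript listed as AC100861, stood at -0.09 and 0.15 on the log2 scale and did not pass (adjusted p of 0.802 and 0.286 in edgeR).

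The ratio of TNFRSF10B to TNFRSF10A, both in FPKM (fragments scaled by gene length and library depth, which allows levels of different genes to be set side by side), differed little between the groups. It was 3.07, 3.04 and 3.06 in siEIF4G2 and 3.21, 3.25 and 3.41 in siNC. The siEIF4G2 ratios all lay below the siNC ratios, by 0.10 on the log2 scale (SE 0.03; exact two-sided permutation p = 0.1, adjusted p = 0.25 over 5 ratios). The decoy receptor TNFRSF10D, which binds TRAIL without a complete death domain, read 20.1 to 23.7 CPM in siEIF4G2 and 22.9 to 23.7 CPM in siNC and did not pass (log2 fold change -0.12, 95% interval -0.32 to 0.08; edgeR adjusted p = 0.31). A further TRAIL decoy, TNFRSF10C, stayed between 0 and 0.40 CPM and was not tested.

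FAS (ENSG00000026103), the receptor for Fas ligand, lies on chromosome 10 from 88990531 to 89017059, plus strand. It read 10.5, 10.1 and 11.9 CPM in siEIF4G2 and 12.3, 17.4 and 20.4 CPM in siNC. The siNC libraries were spread widely, and replicate 1 of siNC lay close to the siEIF4G2 libraries. In FPKM the groups overlapped, since siEIF4G2 replicate 3 read 1.81 and siNC replicate 1 read 1.80. The log2 fold change was -0.62 (SE 0.19, 95% interval -1.10 to -0.15), as large as that of TNFRSF10B, but it narrowly missed the threshold (edgeR adjusted p = 0.0526). Without siNC replicate 1 it was -0.80 and passed (adjusted p = 0.0142), and DESeq2 on all 6 libraries also called it (log2 fold change -0.62; adjusted p = 0.0103).

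The first 809 bases of the FAS interval, 3.05% of its length, also belong to ACTA2 (smooth muscle actin), which is transcribed from the opposite strand. Whether reads were counted by strand is not given, so those there cannot be assigned to one gene. ACTA2 fell from 15.0 ± 1.24 CPM in siNC to 2.72 ± 0.32 CPM in siEIF4G2 (mean ± SD, n = 3; log2 fold change -2.47; edgeR adjusted p = 0.000263). The part of ACTA2 in the FAS values was not tested.

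TNFRSF1A (ENSG00000067182), the main receptor for tumour necrosis factor, lies on chromosome 12 from 6328757 to 6342114, minus strand. It read 147, 152 and 141 CPM in siEIF4G2 and 186, 169 and 127 CPM in siNC. The siNC libraries lay on both sides of the siEIF4G2 libraries. Its log2 fold change was -0.13 (95% interval -0.47 to 0.21; edgeR adjusted p = 0.517). Without siNC replicate 3, its lowest siNC library, the change was -0.27 and passed (edgeR adjusted p = 0.039), and without siNC replicate 1 it was -0.01 (edgeR adjusted p = 0.961), so the value rests on which siNC libraries are used.

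**Figure D2:**
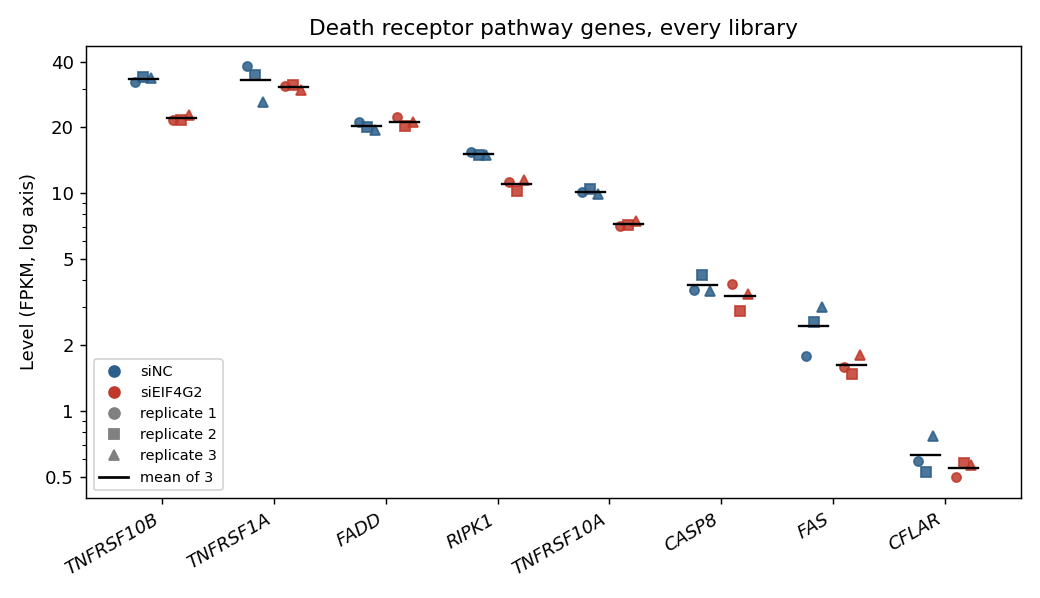
Level of each of the 8 genes in FPKM on a log axis, 1 point per library (blue siNC, red siEIF4G2, marker shape for the replicate number) and a black line for the mean of 3. TNFRSF10B, RIPK1 and TNFRSF10A show 2 separate groups of points, whereas the siNC points of TNFRSF1A, FAS and CFLAR spread over the siEIF4G2 points or close to them.

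Below the receptors, RIPK1 (ENSG00000137275), a kinase with a death domain, lies on chromosome 6 from 3063991 to 3115187, plus strand. It read 55.2, 51.6 and 56.6 CPM in siEIF4G2, against 77.9, 75.5 and 75.1 CPM in siNC. The 2 groups were again separate, with a gap wider than either group's range. The log2 fold change was -0.48 (SE 0.05; edgeR adjusted p = 0.00161), or 1.40-fold lower. The 1 tested gene inside its interval, an antisense transcript listed as AL031963, read 0.57 to 1.21 CPM and did not pass (log2 fold change 0.49; edgeR adjusted p = 0.246).

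FADD (ENSG00000168040), the adaptor between the receptors and caspase-8, lies on chromosome 11 from 70203296 to 70207390, plus strand. It read 44.8, 42.0 and 42.8 CPM in siEIF4G2 and 44.2, 41.6 and 40.2 CPM in siNC. The groups overlapped, and FADD was the only one of the 8 with a fold change above 0. That log2 fold change was 0.04, with a 95% interval from -0.10 to 0.19, the narrowest among the 5 genes that did not pass (edgeR adjusted p = 0.632).

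The sequence upstream of RIPK1, which fell, is set here beside that of FADD, which did not pass and whose interval excludes a fall of the size of RIPK1. Both are the 250 bases before a start of transcription given by RefSeq on GRCh38.p14, plus strand, at chr6:3063717-3063966 for RIPK1 and chr11:70203046-70203295 for FADD. RefSeq gives more than 1 start for RIPK1, and the one at the lowest coordinate was used. Capitals mark the GC box GGGCGG on either strand.
RIPK1: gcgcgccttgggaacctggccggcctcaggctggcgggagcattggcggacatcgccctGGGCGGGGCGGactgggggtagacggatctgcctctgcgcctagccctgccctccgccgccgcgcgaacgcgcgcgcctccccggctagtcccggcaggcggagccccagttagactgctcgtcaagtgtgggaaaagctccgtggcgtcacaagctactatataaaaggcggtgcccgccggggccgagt
FADD: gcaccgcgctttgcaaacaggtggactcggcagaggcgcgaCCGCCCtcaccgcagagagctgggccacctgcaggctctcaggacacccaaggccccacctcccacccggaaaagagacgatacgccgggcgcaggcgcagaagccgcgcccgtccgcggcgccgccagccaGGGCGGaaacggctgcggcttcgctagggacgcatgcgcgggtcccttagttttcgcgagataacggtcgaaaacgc

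Both stretches were rich in G and C, at 70.4% for RIPK1 and 68.8% for FADD, with 29 and 32 CpG pairs. Each held 2 matches to the GC box, at -191 and -186 for RIPK1, where they overlap, and at -209 and -77 for FADD, counted from the start of transcription. Of 35116 windows of 300 bases in the RefSeq table, with chromosome 8 left out, 45.0% held at least 1 such match. Neither stretch held the letters GGGNNTTCC (a kB-type site), GAAANNGAA (an IRF core), TTCNNNGAA (a STAT site), TGANTCA (AP-1) or TGACGTCA (CRE), each searched on both strands. In the 300-base windows, which run 50 bases past the start, RIPK1 held none of these 5 at the start used and FADD held 1 AP-1 match. The 2 windows at the later RIPK1 starts each held an IRF core match, so the absence in RIPK1 depends on the start chosen. In the order given, the 5 were found in 6.58%, 8.11%, 7.66%, 7.71% and 1.85% of the 35116 windows. Windows on chromosome 8 were left out before the search, so TNFRSF10A and TNFRSF10B, which lie there, were not searched. Among the windows of the other 6 genes, a kB-type match lay in 1 window each of FAS, CFLAR and CASP8. IRF core matches lay in 1 window each of CASP8 and CFLAR and in 2 overlapping windows further inside RIPK1. AP-1 matches lay in 1 window each of FADD, FAS and CFLAR and in 2 of CASP8, and a STAT match in 1 window of CASP8. A match is only a run of letters and does not show a bound site.

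CASP8 (ENSG00000064012), the protease that starts the caspase cascade, lies on chromosome 2 from 201233443 to 201287711, plus strand. It read 32.7, 25.5 and 29.4 CPM in siEIF4G2 and 31.7, 37.0 and 31.1 CPM in siNC. The groups overlapped, since siEIF4G2 replicate 1 lay above 2 of the siNC libraries. The log2 fold change was -0.19, with a 95% interval from -0.47 to 0.10 (edgeR adjusted p = 0.266). Leaving out 1 library gave -0.27 to -0.10, with -0.27 without siEIF4G2 replicate 1 and -0.10 without siEIF4G2 replicate 2 or siNC replicate 2.

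CFLAR (ENSG00000003402), the inhibitor that resembles caspase-8, lies upstream of CASP8 on the same chromosome, from 201116154 to 201176687, plus strand. It read 13.3, 15.9 and 15.1 CPM in siEIF4G2 and 16.4, 14.4 and 21.0 CPM in siNC. Only siNC replicate 3 stood clear of the others. The log2 fold change was -0.22 (95% interval -0.61 to 0.16; edgeR adjusted p = 0.324), and it was -0.05 without siNC replicate 3 and -0.34 without siNC replicate 2. The deposited table gives CFLAR 25 transcripts, and messenger RNA summed over a gene does not tell its long form from its short forms.

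Levels of different genes were compared in FPKM. In siNC the order from high to low was TNFRSF10B (33.3 ± 0.88), TNFRSF1A (33.0 ± 6.15), FADD (20.3 ± 0.92), RIPK1 (15.1 ± 0.25), TNFRSF10A (10.1 ± 0.26), CASP8 (3.78 ± 0.37), FAS (2.46 ± 0.62) and CFLAR (0.63 ± 0.13), each the mean ± SD of 3 libraries. Of the neighbours in that order, only TNFRSF10B and TNFRSF1A overlapped in range. In siEIF4G2 TNFRSF1A came first with 30.7 ± 0.85 FPKM, and TNFRSF10B (22.0 ± 0.62) and FADD (21.3 ± 0.98) overlapped. The order of the 5 lower genes was the same in both groups. The place of CFLAR depends on the length behind its FPKM, which from counts, FPKM and library totals came to about 27.1 kb, against 2.04 to 8.68 kb for the other 7. Its exons in GENCODE 29 cover 22529 bases in all, far more than 1 transcript, so its FPKM understates the level per transcript. By counts alone CFLAR (17.3 ± 3.40 CPM in siNC) was close to FAS (16.7 ± 4.10 CPM). Other places rest on length too. FADD lay above RIPK1 in FPKM but below it in CPM (42.0 ± 2.05 against 76.1 ± 1.51 in siNC).

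Ratios of FPKM within each library were used to set CASP8 beside its partners and to compare the groups. The size of every ratio depends on the lengths behind the FPKM of both its genes. Given the long CFLAR length, the size of the CFLAR to CASP8 ratio does not give the balance of transcripts. The ratio of CFLAR to CASP8 was 0.130, 0.200 and 0.164 in siEIF4G2 and 0.165, 0.125 and 0.217 in siNC. The groups overlapped throughout, with a log2 difference of -0.02 (SE 0.29; exact two-sided permutation p = 0.9, adjusted p = 0.9 over 5 ratios). The ratio of RIPK1 to CASP8 was 2.94, 3.54 and 3.36 in siEIF4G2, below all 3 siNC ratios of 4.29, 3.56 and 4.21, though siNC replicate 2 lay next to siEIF4G2 replicate 2. That log2 difference was -0.29 (SE 0.12; exact permutation p = 0.1, adjusted p = 0.25). The ratio of FADD to CASP8 was 6.35 ± 0.61 in siEIF4G2 and 5.40 ± 0.58 in siNC, with overlap (log2 difference 0.24, SE 0.12, n = 3; exact permutation p = 0.2, adjusted p = 0.333), and the difference was 0.15 without siNC replicate 2. The ratio of FAS to TNFRSF10B was 0.0737 ± 0.0054 and 0.0735 ± 0.017 (log2 difference 0.03, SE 0.21, n = 3; exact permutation p = 0.9, adjusted p = 0.9). No ratio could reach a p under 0.1 with 3 libraries a group.

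**Figure D3:**
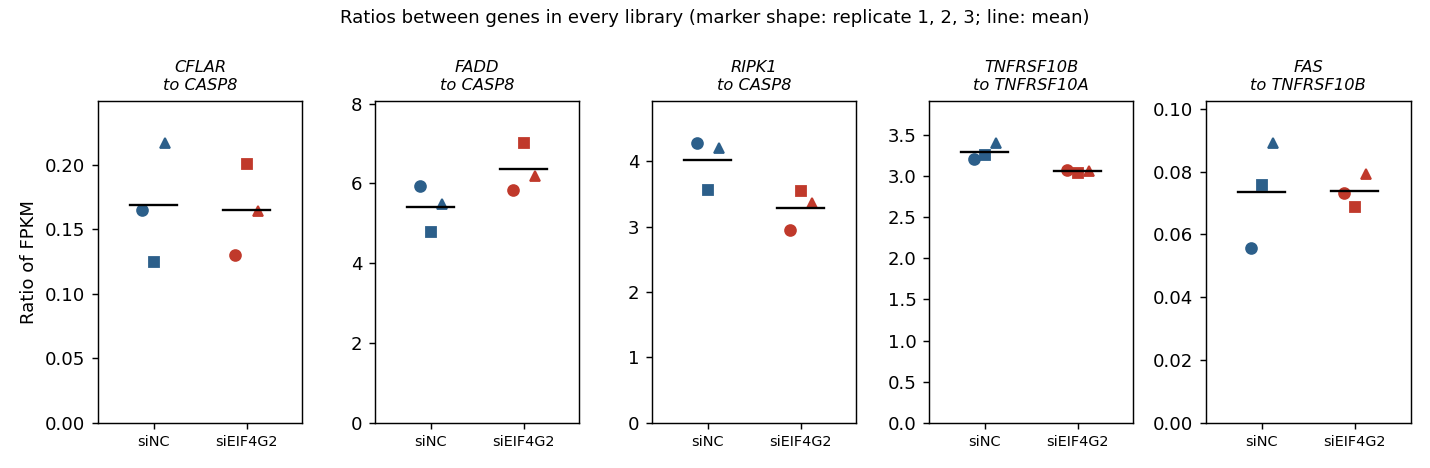
Ratios of FPKM between pairs of genes (y axis, from 0) in the 3 siNC libraries (blue) and the 3 siEIF4G2 libraries (red), with marker shape for the replicate and a line for the mean. The ratios of TNFRSF10B to TNFRSF10A and of RIPK1 to CASP8 do not overlap between the groups, and the other 3 do.

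A further 85 genes of the pathway were read from 8 lists by role. Of these, 66 passed the filter on low values, and 16 fell, 6 rose and 44 did not pass. Their median log2 fold change was -0.14, against 0.01 over all tested genes. Over all tested genes 33.4% were called, 17.6% lower and 15.9% higher, so the 22 calls among 66 were near that share. All the following calls are from edgeR, with adjusted p over all tested genes. The counts by list below are to be read beside the same shares, and no list was tested as a set.

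Of 7 ligands 3 were tested, and 1 fell. TNFSF10, the TRAIL ligand itself, read 6.50, 5.77 and 6.13 CPM in siEIF4G2 against 9.82, 9.21 and 10.9 CPM in siNC, a change of -0.70 on the log2 scale (SE 0.11, edgeR adjusted p = 0.00479). TNFSF10 and both TRAIL death receptors were lower in every siEIF4G2 library than in any siNC library, which held for 25.6% of tested genes. Fas ligand and tumour necrosis factor (FASLG and TNF) were at or under 0.22 CPM in every library and were not tested.

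Of 11 other death and decoy receptors 4 were tested, and none passed. The 2 with the highest FPKM were TNFRSF12A, the receptor for TWEAK, and LTBR, the lymphotoxin beta receptor. Their log2 fold changes were -0.10 and -0.16, with 95% intervals from -0.22 to 0.02 and from -0.47 to 0.15 (edgeR adjusted p = 0.184 and 0.379). The count over the 4 was 0 with edgeR, 0 at an unadjusted p under 0.05 and 0 with DESeq2.

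Of 20 genes of the machinery that joins TNFRSF1A to NF-kB, the longest of the lists, 8 fell and 1 rose (TAB3). Over all tested genes 17.6% were called lower and 15.9% higher. CYLD, a deubiquitinase that trims the chains on RIPK1, went from 44.8 ± 5.79 CPM in siNC to 25.8 ± 1.35 CPM in siEIF4G2 (n = 3; log2 fold change -0.79; edgeR adjusted p = 0.00324). RBCK1 (HOIL-1), a subunit of the linear ubiquitin ligase, went from 46.7 ± 2.34 to 28.9 ± 1.82 CPM (n = 3; log2 fold change -0.70; edgeR adjusted p = 0.00136). TRADD, the death domain adaptor that TNFRSF1A binds first, went from 10.5 ± 0.51 to 6.92 ± 0.67 CPM (n = 3; log2 fold change -0.60; edgeR adjusted p = 0.00832). The falls therefore included both writers and erasers of ubiquitin. TNFAIP3 (A20), a further ubiquitin-editing brake on this pathway, was lower by a smaller amount (log2 fold change -0.31; edgeR adjusted p = 0.0129). The other 4 genes that were lower (TRAF2, SHARPIN, TNIP1 and UBE2L3) lay between -0.30 and -0.18 on the log2 scale. TRAF2, SHARPIN, UBE2L3 and TAB3 lost their calls on leaving out any 1 library other than siEIF4G2 replicate 2, with edgeR adjusted p up to 0.0917, 0.112, 0.122 and 0.107.

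None of the 7 tested caspases other than CASP8 passed. CASP4, an inflammatory caspase, read 49.9, 62.9 and 61.5 CPM in siEIF4G2 and 70.2, 63.2 and 76.8 CPM in siNC (log2 fold change -0.27, 95% interval -0.55 to 0.01; edgeR adjusted p = 0.12). CASP10, the closest relative of CASP8, lay between 3.16 and 6.16 CPM and did not pass the filter. At an unadjusted p under 0.05, 2 of the 7 passed, CASP1 (lower) and CASP6 (higher), with edgeR adjusted p of 0.0659 and 0.0757, and DESeq2 called both.

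None of the 10 tested death effector domain and death domain adaptors passed either, and their median log2 fold change was 0.14. PEA15, which binds FADD, and DAXX, a FAS-binding protein, had the highest FPKM, with log2 fold changes of 0.14 (edgeR adjusted p = 0.762) and -0.01, the latter with a 95% interval from -0.36 to 0.34. PEA15 read 74.1, 158 and 73.1 CPM in siEIF4G2 and 90.1 to 95.1 CPM in siNC, so siEIF4G2 replicate 2 set its mean. At an unadjusted p under 0.05, FAF1 and FAIM passed, both higher, and DESeq2 called FAIM.

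Downstream, 4 of 13 genes of mitochondrial amplification and caspase inhibition fell and 2 rose. BAX and BAK1, which open the outer mitochondrial membrane, were 1.62-fold and 1.39-fold lower (edgeR adjusted p = 0.00179 and 0.000868). CYCS, cytochrome c, was 1.46-fold higher and BIRC5, survivin, 1.65-fold higher (edgeR adjusted p = 0.000552 and 0.0116). CYCS has many processed pseudogenes, so its count is uncertain. MCL1, an inhibitor of BAX and BAK1, went from 425 ± 7.25 to 327 ± 1.45 CPM (n = 3; log2 fold change -0.38; edgeR adjusted p = 0.000876). HTRA2, a mitochondrial protease that counters caspase inhibitors, was 1.26-fold lower (edgeR adjusted p = 0.00768). At an unadjusted p under 0.05, BCL2 (higher), APAF1 and DIABLO (both lower) also passed, with edgeR adjusted p of 0.0593, 0.0938 and 0.0568, and DESeq2 called all 3. BID, which caspase-8 cleaves to reach the mitochondria, did not pass (log2 fold change 0.19, 95% interval -0.08 to 0.47; edgeR adjusted p = 0.229).

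Of the 5 necroptosis genes, RIPK3, the kinase that RIPK1 activates in this form of death, was listed at 0 in every library, which allows up to 3 counts in each. MLKL, the membrane-permeabilizing protein that RIPK3 phosphorylates, read 21.1 to 32.7 CPM in siEIF4G2 and 22.3 to 35.1 CPM in siNC and did not pass (log2 fold change -0.13, 95% interval -0.70 to 0.44; edgeR adjusted p = 0.706). PGAM5, a mitochondrial phosphatase, rose from 44.2 ± 10.5 to 73.3 ± 3.55 CPM (n = 3; log2 fold change 0.73; edgeR adjusted p = 0.0179). That call was lost without siEIF4G2 replicate 1 (edgeR adjusted p = 0.055) or siNC replicate 2 (edgeR adjusted p = 0.0582). TICAM1, an adaptor of Toll-like receptors that binds RIPK1, fell slightly (log2 fold change -0.27; edgeR adjusted p = 0.0453), and lost its call on leaving out any 1 library other than siEIF4G2 replicate 2 (adjusted p up to 0.128).

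Of 6 tested genes for the caspase-activated nuclease and for cleaved substrates, 2 fell and 2 rose. GSDME, a pore-forming protein that caspase cleavage activates, and LMNA, a nuclear lamin cut by caspase-6, were 1.53-fold and 1.33-fold lower (edgeR adjusted p = 0.0178 and 0.0142). The call of GSDME was lost without siEIF4G2 replicate 3 (edgeR adjusted p = 0.0591) or siNC replicate 1 (edgeR adjusted p = 0.0571). PARP1 and DFFA, the inhibitor of the nuclease DFFB, rose by 0.28 and 0.27 on the log2 scale (adjusted p of 0.0035 and 0.0149 in edgeR). DFFA lost its call without siNC replicate 1 (0.0538) or 2 (0.0513).

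**Figure D4:**
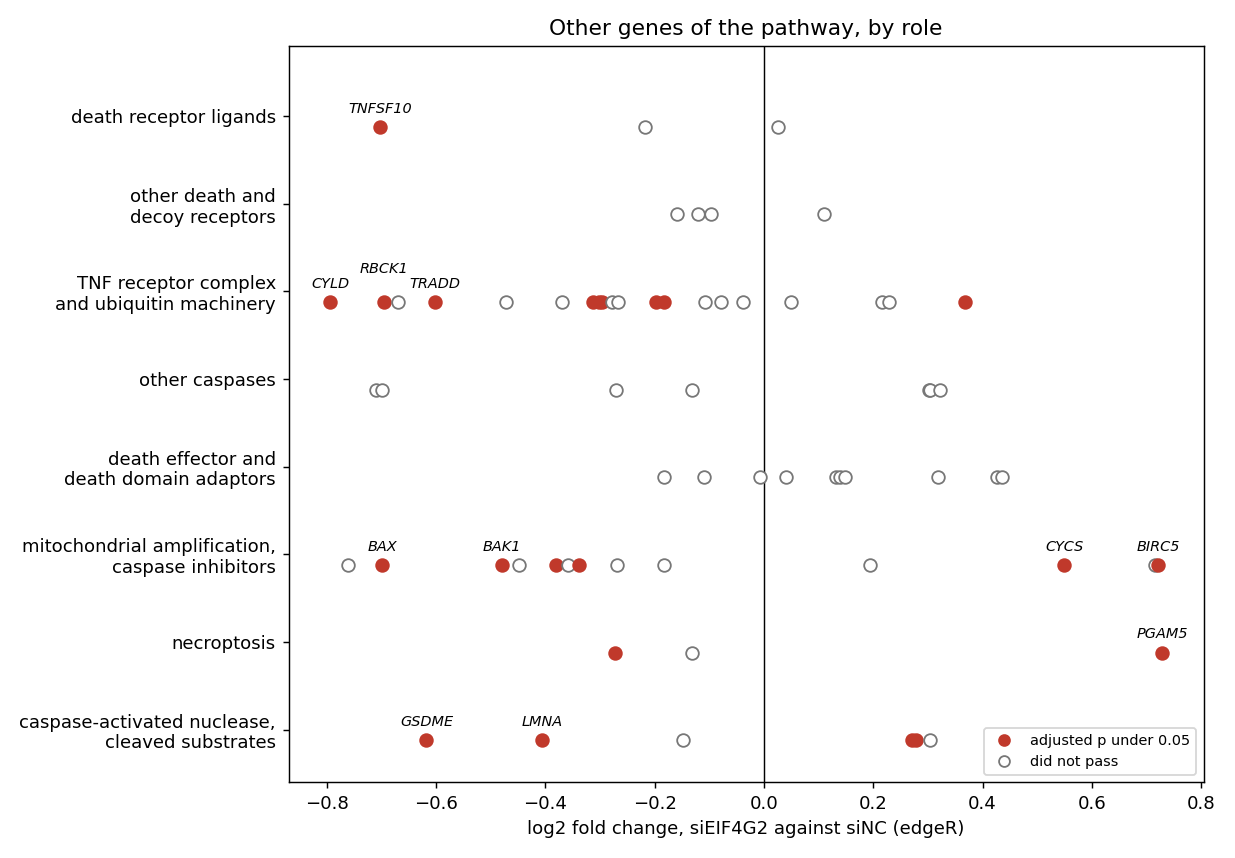
log2 fold change (x axis, siEIF4G2 against siNC, edgeR) of the 66 tested pathway genes in rows by role; filled red points have an adjusted p under 0.05, and names are given for called genes with a change of at least 0.4. The 8 falls of the TNF receptor complex row lie left of 0, and no point is filled in the rows of other receptors, other caspases and adaptors.

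The genes with the pattern most like each of the 3 that fell were found from log2 CPM centred on the mean of the 6 libraries, as the root mean square difference over those 6 libraries. Among the 66 tested pathway genes, BAK1 lay nearest to TNFRSF10A (0.04) and to RIPK1 (0.04), with MCL1 next for both (0.08 and 0.06). RBCK1 and BAK1 lay nearest to TNFRSF10B (0.06 and 0.08). Among 6309 tested genes with a mean of at least 5 FPKM, MSLN, mesothelin, and HPS3 lay nearest to TNFRSF10A (0.01 and 0.02), PSEN2, presenilin 2, and COPG1, a coat protein of transport vesicles, nearest to TNFRSF10B (0.02 and 0.02), and PCNP and SNX9, a sorting nexin, nearest to RIPK1 (0.02 and 0.03). With 2 groups of 3 libraries this measure mostly finds genes with the same fold change and little spread.

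The 3 calls did not depend on 1 library or on the settings tried. TNFRSF10B, TNFRSF10A and RIPK1 each passed under all 16 alternatives, with log2 fold changes from -0.64 to -0.57, from -0.53 to -0.44 and from -0.51 to -0.42. FADD, CASP8 and CFLAR passed under none of theirs. FAS passed under 2 of 15 and TNFRSF1A under 1 of 16.

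**Figure D5:**
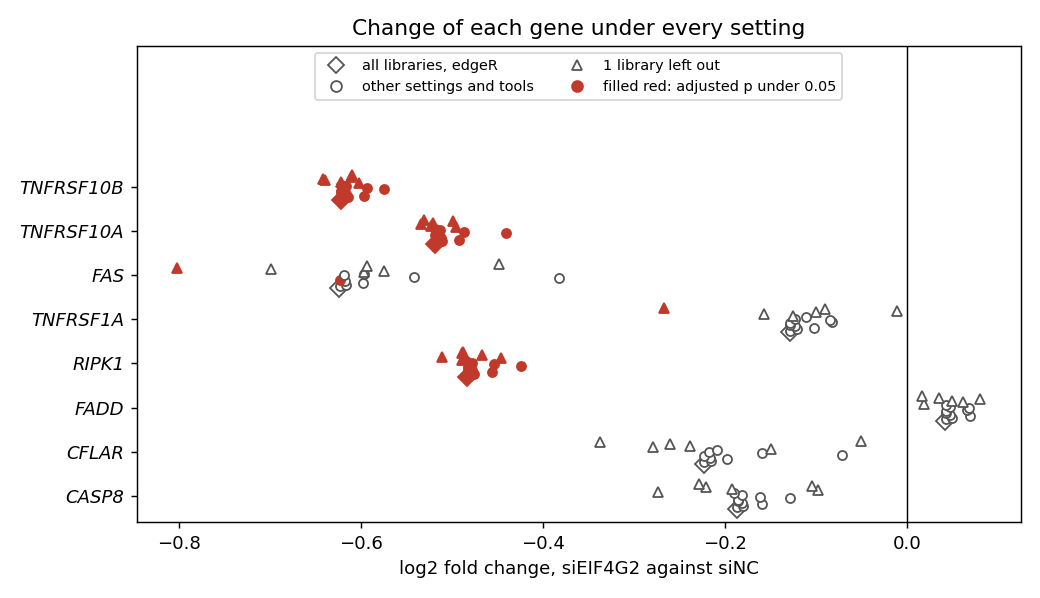
log2 fold change (x axis) of the 8 genes with all libraries and edgeR (diamonds), with other settings and tools (circles) and with 1 library left out (triangles); filled red symbols have an adjusted p under 0.05. TNFRSF10B, TNFRSF10A and RIPK1 are filled throughout, and FAS ranges from -0.80 to -0.38 with 2 filled symbols.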

How the data were processed

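The authors deposited 1 table with, per library, an estimated count and an FPKM value for 60612 genes, per the file headers, and HISAT2 2.0 and StringTie 1.3.0 are listed, with no roles, per the submitters' processing notes. The build, the annotation and whether counting used strand were not given in the sources used here. Deposited intervals overlapped GENCODE 29 (GRCh38) for 99.9% of 58394 shared identifiers, so coordinates are given as GRCh38. The deposited FPKM values were used for levels between genes and for the filter (at least 0.5 FPKM in at least 3 libraries, after keeping the row with the highest mean FPKM per symbol). The deposited estimated counts, whole as given, entered edgeR's quasi-likelihood test with TMM factors (0.985 to 1.02) and group as the only term. The design had named this test for a table that holds counts. P-values are two-sided and adjusted (Benjamini-Hochberg) across the 13748 tested genes. Intervals are 95% from edgeR's moderated degrees of freedom, and standard errors are the log2 fold change over the root of F. The edgeR step was also run on simulated counts with known changes. A gene that did not pass may still have changed.

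Pathway genes named are those called with a log2 change of at least 0.4, or the 2 with the highest FPKM where a list had none; also named are overlapping genes and nearest patterns. TNFRSF10D, TNFAIP3, HTRA2, BID, MLKL, RIPK3, TICAM1, PARP1, DFFA, CASP10, MCL1, TAB3, TRAF2, SHARPIN, TNIP1, UBE2L3, the genes passing only an unadjusted p, and the ligands at low level were picked after their values were seen, as were the motifs. Some genes that the rule selects are not reported here. The 8 genes and all lists were chosen with earlier results of these data known. The same-numbered replicates were not treated as pairs, since the correlations of their deviations from the group means were 0.0052, 0.035 and 0.053. No 2 libraries of a group agreed within sampling noise (chi-square per gene of at least 48.9). Alternatives were other scalings, filters, tools, pseudocounts, summed rows, a replicate block and leaving out each library. Versions: edgeR 4.0.16, DESeq2 1.42.0 and limma 3.58.1 in R 4.3.3, with Python 3.11.15, numpy 2.4.6, pandas 2.3.3, scipy 1.17.1 and matplotlib 3.10.9.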

Additional observations from a re-analysis of the deposited data

How the results depend on the processing

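The count of the 8 genes called was 3 in the main analysis and 3 or 4 under all 16 alternatives, with 3 to 4 on leaving out 1 library. The 66 tested pathway genes gave 22 calls, and 16 to 25 on leaving out 1 library. With DESeq2 there were 21 lower and 9 higher. Of those 22 calls, 14 held under all 16 alternatives, and the 8 others were TRAF2, SHARPIN, TAB3, UBE2L3, TICAM1, DFFA, PGAM5 and GSDME. The first 5 of these were also lost with no filter on low values. Over all genes 4597 were called, with 3352 to 4134 on leaving out 1 library and 5343 by DESeq2. The EIF4G2 change stayed between -2.50 and -2.36 on leaving out 1 library. FAS passed under DESeq2 (log2 fold change -0.62) and without siNC replicate 1 (-0.80), and TNFRSF1A without siNC replicate 3 (-0.27); the cause was not tested. FAS and CFLAR did not pass the filter of 2 FPKM and have no value there. With the replicate number as a block, 3736 genes were called, 3 of the 8 among them, and the pathway genes gave 14 lower and 6 higher. SHARPIN, UBE2L3 and DFFA lost their calls under the block. Whether the numbers pair the libraries is not given by the labels. In siEIF4G2, replicates 1 and 2 did not correlate best with their own number, and replicate 3 did. The 5 ratios moved by less than their spread under each alternative, and those of FADD to CASP8 (0.15 to 0.31), RIPK1 to CASP8 (-0.38 to -0.22) and TNFRSF10B to TNFRSF10A (-0.12 to -0.08) kept their sign, while those of CFLAR to CASP8 (-0.22 to 0.18) and FAS to TNFRSF10B (-0.16 to 0.18) changed sign on leaving out 1 library. On the log2(FPKM + 1) scale the falls are smaller (-0.57, -0.44 and -0.42 for TNFRSF10B, TNFRSF10A and RIPK1).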

Other observations

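Several regulators next to the death receptors varied between replicates of the same group more than between the groups. Of 66 tested pathway genes, 12 (18.2%) differed at least 2-fold within a group, as did 0 of the 8 genes described above and 12.6% of all tested genes. XIAP, a direct inhibitor of caspases, read 7.96, 5.51 and 22.8 CPM in siEIF4G2 and 5.93, 30.4 and 25.1 CPM in siNC. BIRC2 (cIAP1), a ubiquitin ligase for RIPK1, read 35.2, 38.8 and 40.1 CPM in siEIF4G2 and 68.8, 35.5 and 76.9 CPM in siNC, so siNC replicate 2 lay with the siEIF4G2 libraries. BIRC3 (cIAP2), its relative, read 43.6 CPM in replicate 2 of both groups and 73.4 to 96.0 CPM in the other 4 libraries. RNF31 (HOIP), the catalytic subunit of the linear ubiquitin ligase, read 31.8 CPM in siNC replicate 2 and 10.6 to 18.6 CPM elsewhere. None of these 4 passed edgeR's test (adjusted p = 0.475, 0.114, 0.591 and 0.356), though DESeq2 called BIRC2 lower, and the deposited counts are estimates whose assignment of reads among transcripts was not tested. These genes were picked after their values were seen.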
